A study of Mus musculus with 2 samples.

Results

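Distal exonic peaks are sites of open chromatin that lie inside exons of protein-coding genes and away from promoters. They were taken from the ATAC-seq peak lists of E14 mouse embryonic stem cells (WT) and Uhrf1 KO ESCs. A peak was a member when its centre lay more than 2 kb from every annotated transcription start site (TSS), on an autosome and inside an exon of a protein-coding gene. Peaks whose central 200 bp combined a GC content of 55% or more with a CpG observed/expected ratio of 0.6 or more, the composition of a CpG island, were left out. By this rule 1074 of the 71914 WT peaks (1.49%) and 693 of the 61640 KO peaks (1.12%) were members. In ATAC-seq a transposase cuts and tags DNA where it is not covered by nucleosomes. Both cell lines were undifferentiated, came from 1 source laboratory and were grown with serum and leukemia inhibitory factor on gelatin or on a layer of embryonic fibroblasts, and 50000 cells were lysed for each library. Each genotype was 1 library from 1 line, so every difference below is between those libraries, and the genotypes could not be tested. The lists hold no read counts, so the depth behind a peak is unknown, and they do not check the loss of Uhrf1. Within 2 kb of the gene start, the ESC marker genes Pou5f1, Nanog and Sox2 held 6, 2 and 2 peaks in WT and 3, 1 and 4 in KO.

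Uhrf1 binds DNA that is methylated on 1 strand after replication and brings the maintenance methyltransferase Dnmt1 to it, so that cells without Uhrf1 lose most of their CpG methylation. In mammalian cells the bodies of transcribed genes are usually methylated at CpGs, whereas CpG-rich promoters are mostly not. Exons are richer in G and C than introns, and coding sequence can also hold binding sites of transcription factors, among them CTCF, which shapes the folding of chromatin and binds some of its sites only when they are unmethylated.

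The sequences of 11 coding peaks show what such sites look like. For each status, namely a WT peak with a KO peak nearby, a WT peak without one and a KO peak without a WT peak, these are up to 4 peaks in coding sequence with the lowest numbers in their names relative to their chromosome, no base in a UTR and a central 31 bp found once in the genome. The strand of the gene is shown from 5′ to 3′, with coding bases in capitals and intron bases in lower case, from the mm9 sequence. The shared WT peaks lay in exon 11 of 13 of Sfi1 at chr11:3057814-3057914 on the minus strand, in exon 21 of 22 of Shank3, a scaffold protein of synapses, at chr15:89378882-89378982 on the plus strand, and in exon 2 of 3 of the zinc finger gene Zscan22, at chr7:13489129-13489229 and chr7:13489046-13489146 on the plus strand.
Sfi1: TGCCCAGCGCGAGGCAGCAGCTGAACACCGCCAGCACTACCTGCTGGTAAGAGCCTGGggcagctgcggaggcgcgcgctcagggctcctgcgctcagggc
Shank3: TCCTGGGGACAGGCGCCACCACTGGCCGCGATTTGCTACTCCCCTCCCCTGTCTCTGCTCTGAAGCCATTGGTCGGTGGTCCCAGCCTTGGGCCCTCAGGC
Zscan22, first: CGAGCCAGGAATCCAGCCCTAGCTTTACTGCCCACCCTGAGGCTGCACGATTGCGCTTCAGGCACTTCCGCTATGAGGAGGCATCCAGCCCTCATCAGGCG
Zscan22, second: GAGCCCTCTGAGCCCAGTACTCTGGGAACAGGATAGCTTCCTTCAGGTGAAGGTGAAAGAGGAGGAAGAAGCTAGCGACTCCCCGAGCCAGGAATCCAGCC
The WT peaks without a KO partner lay in exon 18 of 26 of Sorbs2, an adaptor protein of the actin cytoskeleton, at chr8:46881805-46881905 (plus strand), in exon 8 of 31 of Odz2, a teneurin of neuronal connections, at chr11:36034875-36034975 (minus strand), in exon 16 of 23 of Hook2, which links cargo to microtubule motors, at chr8:87521875-87521975 (plus strand), and in exon 7 of 8 of BC068157 at chr8:4213319-4213419 (minus strand).
Sorbs2: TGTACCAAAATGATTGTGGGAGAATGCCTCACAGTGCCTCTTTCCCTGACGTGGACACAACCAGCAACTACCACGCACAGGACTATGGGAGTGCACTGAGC
Odz2: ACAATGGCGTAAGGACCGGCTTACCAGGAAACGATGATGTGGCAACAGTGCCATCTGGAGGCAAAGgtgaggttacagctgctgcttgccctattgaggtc
Hook2: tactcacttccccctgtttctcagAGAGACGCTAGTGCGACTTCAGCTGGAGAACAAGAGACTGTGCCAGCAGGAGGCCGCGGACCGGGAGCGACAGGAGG
BC068157: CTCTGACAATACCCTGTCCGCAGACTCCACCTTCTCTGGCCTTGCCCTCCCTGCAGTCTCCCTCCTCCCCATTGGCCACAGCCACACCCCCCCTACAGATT
The KO peaks without a WT partner lay in exon 29 of 41 of C3, the central component of complement, at chr17:57351073-57351173 (minus strand), in exon 42 of 54 of Myof, a membrane repair protein, at chr19:37995818-37995918 (minus strand), and in exon 42 of 74 of Utrn, the relative of dystrophin, at chr10:12378308-12378408 (minus strand).
C3: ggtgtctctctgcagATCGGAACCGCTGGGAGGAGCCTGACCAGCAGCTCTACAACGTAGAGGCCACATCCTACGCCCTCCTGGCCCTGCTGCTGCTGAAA
Myof: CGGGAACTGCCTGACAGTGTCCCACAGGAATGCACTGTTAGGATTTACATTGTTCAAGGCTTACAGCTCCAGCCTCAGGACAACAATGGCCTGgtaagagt
Utrn: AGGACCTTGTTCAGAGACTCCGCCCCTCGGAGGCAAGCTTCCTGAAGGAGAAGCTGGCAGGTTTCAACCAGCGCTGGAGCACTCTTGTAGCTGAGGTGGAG
The peaks of Sfi1, Odz2, Hook2, C3 and Myof crossed the border between an exon and its intron, and the other 6 were coding over their whole length of 101 bp. The Sfi1 peak was centred 4 bp from its KO partner and the Shank3 peak 8 bp from its own. The first and second Zscan22 peaks, which overlap each other, were centred 7 bp and 83 bp from theirs. Over all members, those in UTRs included, the whole listed peak lay inside exon sequence for 80.5% in WT and 79.2% in KO. Coding peaks were 46.4% of these in WT and 33.9% in KO, beside 56.1% and 46.2% of all members. Coding peaks thus crossed an exon border more often than the other members. The common peak width of 101 bp does not show how far the open region reached.

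The KO list held fewer distal exonic peaks than the WT list, and the difference was largest in coding sequence. The KO/WT ratio of peak numbers was 0.645 (95% exact counting interval 0.586 to 0.711), below the ratio of 0.853 (0.843 to 0.862) over all autosomal peaks. Distal peaks in introns of the same class of genes, under the same distance limit and CpG-island exclusion, gave 0.969 (0.941 to 0.997). They numbered 9417 in WT and 9123 in KO. Their composition was not matched, with a median GC content in WT of 53.0% against 57.5% in distal exonic peaks. The distal CpG-island-like peaks left out by the rule gave 0.606 (0.574 to 0.639) and peaks within 2 kb of a TSS 0.765 (0.754 to 0.777), both also below the ratio of all peaks. Coding sequence held 603 WT and 320 KO peaks, a ratio of 0.531 (0.462 to 0.609). The 3′ untranslated regions (3′ UTRs), which follow the stop codon, held 378 and 289 peaks, a ratio of 0.765 (0.654 to 0.893). Exons of transcripts without coding sequence held 85 and 70, a ratio of 0.824 (0.591 to 1.14), and 5′ UTRs held 8 and 14 (1.75, 0.685 to 4.81). The interval for coding sequence did not overlap those for 3′ UTRs and introns, whereas the intervals for 3′ UTRs, 5′ UTRs and transcripts without coding sequence all included the ratio of all peaks. These intervals cover counting error only. In a bulk library, fewer cells with a site open and a less open site in each cell cannot be told apart.

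**Figure D1:**
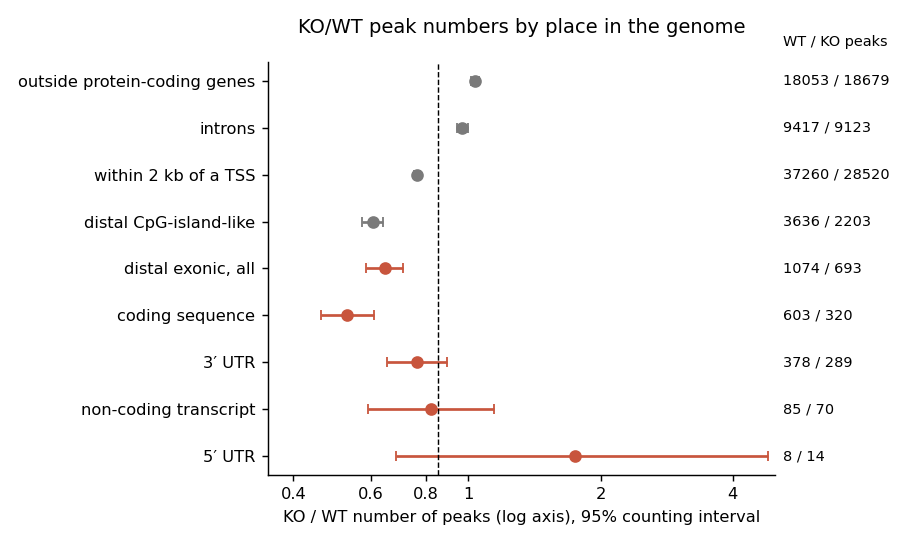
KO/WT ratio of peak numbers (log axis, dots) with its 95% exact counting interval (bars) for distal exonic peaks and their kinds (red) and for the other classes of autosomal peaks (grey), with the WT and KO peak numbers at the right. Introns, CpG-island-like peaks and peaks outside protein-coding genes lie more than 2 kb from a TSS, and the dashed line is the ratio over all autosomal peaks (0.853). Coding sequence has the lowest ratio shown (0.531) and distal introns lie near 1.

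The share of coding sequence among distal exonic peaks was therefore 56.1% (53.1 to 59.1, exact binomial interval) in WT and 46.2% (42.4 to 49.97) in KO. Coding bases made up 44.7% of the exon bases at which a peak centre would have met the rule. The 3′ UTRs held 35.2% of the members in WT and 41.7% in KO, against 45.5% of such bases. The KO peaks were thus spread over coding and 3′ UTR sequence nearly in proportion to their bases, and the WT peaks were shifted towards coding sequence. By place in the transcript, last exons held 629 WT and 429 KO peaks (ratio 0.682, 0.602 to 0.772) and internal exons 420 and 249 (0.593, 0.505 to 0.695), with overlapping intervals.

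The ratio was below the 0.853 of all autosomal peaks together on every autosome and in each range of distance from promoters. The intervals of single chromosomes were wide. On each of the 19 autosomes the KO list had fewer distal exonic peaks than the WT list. The ratio was lowest on chromosome 8, with 105 WT and 42 KO peaks (0.40, 0.273 to 0.577). Chromosome 8 was also low over all its peaks (0.641, 0.612 to 0.671). The other 18 autosomes ranged from 0.50 (0.306 to 0.801) on chromosome 18 to 0.778 (0.358 to 1.66) on chromosome 19. Only on chromosomes 8 and 18 did the interval lie wholly below 0.853. Without chromosome 8 the ratio was 0.672 (0.607 to 0.743), beside 0.868 for all autosomal peaks. Both lists also hold peaks, 145 in WT and 130 in KO, in the unsequenced first 3 Mb of chromosome 1, where no read can map, and between 3 and 7 Mb of it they hold 71.2 and 79.2 peaks per Mb, against 25.5 and 21.7 over the rest of the chromosome. In that stretch lay 4 WT and 6 KO members, in Rp1, Mrpl15 and Oprk1, whose places are therefore doubtful, and without it the ratio was 0.642. Peaks between 2 and 5 kb from a TSS gave 0.674 (0.564 to 0.804), those at 10 to 50 kb 0.614 (0.520 to 0.725) and those beyond 50 kb 0.718 (0.491 to 1.04), whereas intronic peaks gave between 0.936 and 1.01 over the same distances. The median distance to a TSS was 8.20 kb in WT and 8.07 kb in KO. Moving the limit from 2 kb to 1 kb gave 1277 WT and 833 KO peaks with a ratio of 0.652. These include all members beyond 2 kb, so the ratio says little about the peaks between 1 and 2 kb. Keeping CpG-island-like peaks gave 1729 and 987 peaks and a lower ratio of 0.571.

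Each peak name ends in a number, and peaks with low numbers were more often found in both lists, although what the number ranks is not given in the sources used here. Among the 50% of autosomal peaks of each list with the lower numbers on their chromosome, 330 WT and 266 KO peaks were distal exonic, a ratio of 0.806 (0.683 to 0.9502). This interval includes 0.853, but cutting each list at 50% keeps the ratio of all peaks at 0.853 in both parts. That ratio therefore holds no information on low name numbers. Among the rest the numbers were 744 and 427, a ratio of 0.574 (0.508 to 0.647). Introns showed the same order at a higher level, with 1.12 (1.06 to 1.17) and 0.902 (0.871 to 0.935), and in both parts their interval was apart from that of exons. With lower name numbers coding sequence gave 0.717 (0.564 to 0.908) and 3′ UTRs 0.858 (0.653 to 1.13), with overlapping intervals. Among the rest they gave 0.456 (0.383 to 0.541) and 0.721 (0.594 to 0.874), with intervals apart. The difference between the lists was thus larger among peaks with high name numbers. Distal exonic peaks were themselves mostly of this kind, since the lowest 20% of name numbers held 43 of the WT members and the highest 20% held 320.

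The position of each WT peak was then looked up in the KO list and the reverse, and a partner was any peak of the other list at a gap of 100 bp or less. Of the 1074 WT members, 556 (51.8%, 48.7 to 54.8) had no KO partner, beside a background of 32.2% over all autosomal WT peaks and 41.7% (40.7 to 42.7) in distal introns. In coding sequence the share was 56.7% (52.7 to 60.7), in 3′ UTRs 49.2% (44.1 to 54.4) and in exons of transcripts without coding sequence 30.6% (21.0 to 41.5). The KO list showed the opposite order against introns. Of the 693 KO members, 196 (28.3%, 24.96 to 31.8) had no WT partner, beside 24.4% over all autosomal KO peaks and 40.8% (39.8 to 41.8) in distal introns. In coding sequence 24.7% (20.1 to 29.8) of KO peaks had no WT partner. The exonic KO peaks were thus mostly at sites also listed in WT, and their share of unmatched peaks was slightly above the background and below that of introns.

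**Figure D2:**
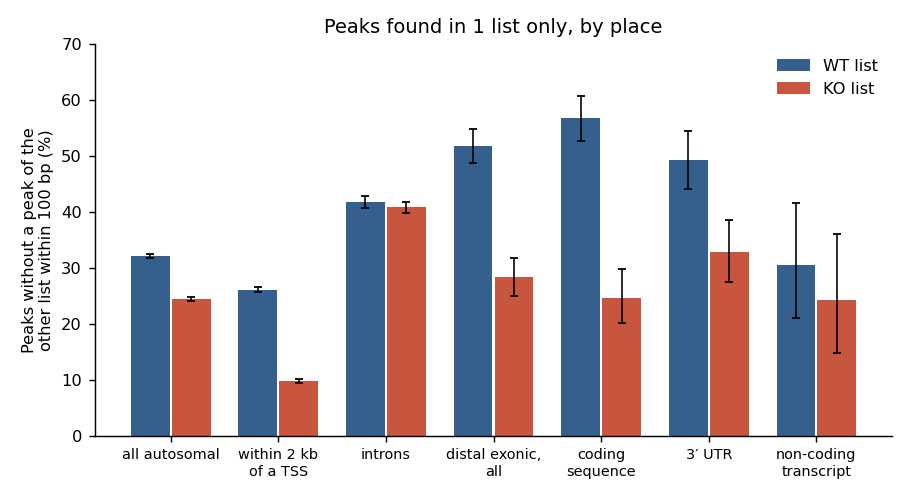
Percentage of peaks with no peak of the other list within 100 bp (bars, with 95% exact binomial intervals as black lines) in the WT list (blue) and the KO list (red), for all autosomal peaks, for peaks within 2 kb of a TSS, for distal introns, and for distal exonic peaks and their kinds. In coding sequence 56.7% of WT peaks and 24.7% of KO peaks have no partner, while the bars for introns have nearly the same height (41.7% and 40.8%).

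Shared peaks lay at closely matching positions. The median distance between the centres of partners was 21 bp for the 518 shared WT members and 19 bp for the 497 shared KO members. For 457 of the 518 the nearest partner was itself a distal exonic peak, for 39 it was intronic and for 20 CpG-island-like. The share without a partner depended strongly on the name number, from 4.65% (0.568 to 15.8) among WT members in the lowest 20% of name numbers to 76.6% (71.5 to 81.1) in the highest 20%. In KO the same groups gave 3.51% (0.428 to 12.1) and 45.1% (37.7 to 52.6).

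Peak numbers were set against the amount of sequence in which a peak could have been a member. In WT, distal exons held 22.7 peaks per Mb (21.3 to 24.1, exact Poisson interval), compared with 12.1 (11.8 to 12.3) in distal introns and 13.0 (12.8 to 13.2) outside protein-coding genes. In KO, distal exons held 14.6 peaks per Mb (13.6 to 15.8), introns 11.7 (11.5 to 12.0) and sequence outside genes 13.5 (13.3 to 13.7). Exons were thus 1.88 times as dense as introns in WT and 1.25 times in KO. Within exons, coding sequence held 28.5 peaks per Mb (26.2 to 30.8) in WT and 15.1 (13.5 to 16.9) in KO, and 3′ UTRs held 17.5 (15.8 to 19.4) and 13.4 (11.9 to 15.0). The intervals of coding sequence and 3′ UTRs were apart in WT and overlapped in KO.

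A lower ratio was found inside exons and also in the first 500 bp of the neighbouring introns. In WT the density was highest 100 to 200 bp inside the exon, at 30.6 peaks per Mb (25.8 to 36.1), where KO had 16.9 (13.4 to 21.2). In the first 50 bp of the intron WT had 18.6 (16.2 to 21.1) and KO 12.6 (10.7 to 14.8), a ratio of 0.680 (0.551 to 0.836). The ratio was 0.761 (0.619 to 0.934) at 50 to 100 bp, 0.842 (0.715 to 0.991) at 100 to 200 bp and 0.803 (0.717 to 0.899) at 200 to 500 bp. From 500 bp onwards it was between 0.975 and 1.01, and WT and KO densities could not be separated, at 11.6 (11.3 to 11.9) and 11.7 (11.4 to 12.0) beyond 2000 bp. Short exons showed a smaller density than longer ones. Stretches of exon sequence under 150 bp held 14.3 WT peaks per Mb (11.7 to 17.3) and those of 300 to 1000 bp 30.0 (25.8 to 34.8).

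**Figure D3:**
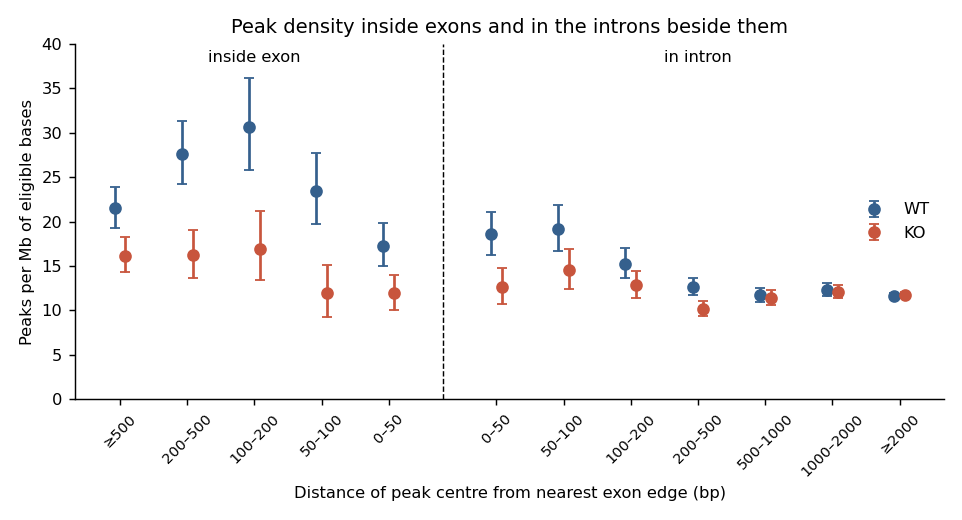
Peaks per Mb of eligible sequence (dots, with 95% exact Poisson intervals) in WT (blue) and KO (red) against the distance of the peak centre from the nearest exon edge in bp, inside exons (left of the dashed line) and in introns (right). WT exceeds KO inside exons and in the first 50 bp of introns, and the lists meet at about 11.7 peaks per Mb beyond 2000 bp.

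Base composition differed together with these contrasts. The central 200 bp had a median GC content of 57.5% (quartiles 53.6 to 61.0) in WT members and 56.0% (52.0 to 60.0) in KO members, and 89.9% and 83.8% of them had a GC content of 50% or more. All autosomal peaks had medians of 59.5% in WT and 56.5% in KO, and distal intronic peaks 53.0% and 51.5%. The lower GC content in KO was therefore not particular to members. Only 35.97% of eligible exon bases, 49.0% of coding bases and 17.1% of intron bases had windows of such GC content. At equal GC content, counted in bins of 5 percentage points, exons held fewer peaks than introns in both lists. The 1074 WT peaks compared with 1426 expected from the intron density at the same GC (0.753 times, 0.709 to 0.799), and the 693 KO peaks with 1138 (0.609 times, 0.564 to 0.656). The higher crude density of exons therefore turned into a lower one at matched GC.

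The KO/WT ratio was lower at higher GC content in exons and, up to 65% GC, in introns. In exons it was 0.988 (0.718 to 1.36) at 45 to 50% GC, 0.771 (0.630 to 0.941) at 50 to 55%, 0.596 (0.502 to 0.706) at 55 to 60%, 0.555 (0.450 to 0.682) at 60 to 65% and 0.365 (0.234 to 0.556) at 65 to 70%. In introns the same bins gave 1.18 (1.11 to 1.25), 0.954 (0.906 to 1.00), 0.745 (0.7001 to 0.793), 0.615 (0.555 to 0.681) and 0.680 (0.541 to 0.853) and were not lower at 65 to 70% than at 60 to 65%. Had each WT member met the intron ratio of its GC bin, 866 KO members would have been listed, and the 693 observed were 0.7999 times that number (0.741 to 0.862). For coding sequence the 320 KO peaks were 0.694 times (0.620 to 0.774) the 461 expected, and for 3′ UTRs the 289 were 0.916 times (0.814 to 1.03) the 315 expected. At matched GC the lower ratio thus remained for coding sequence and could not be separated from introns for 3′ UTRs. Neither the number of CpGs nor the name number was matched. The intervals leave out the counting error of the intron ratio. WT members without a partner numbered 556 where introns of the same GC gave 460, and KO members without a partner 196 where introns gave 222. No interval was computed for these comparisons, so whether they exceed counting error was not tested.

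**Figure D4:**
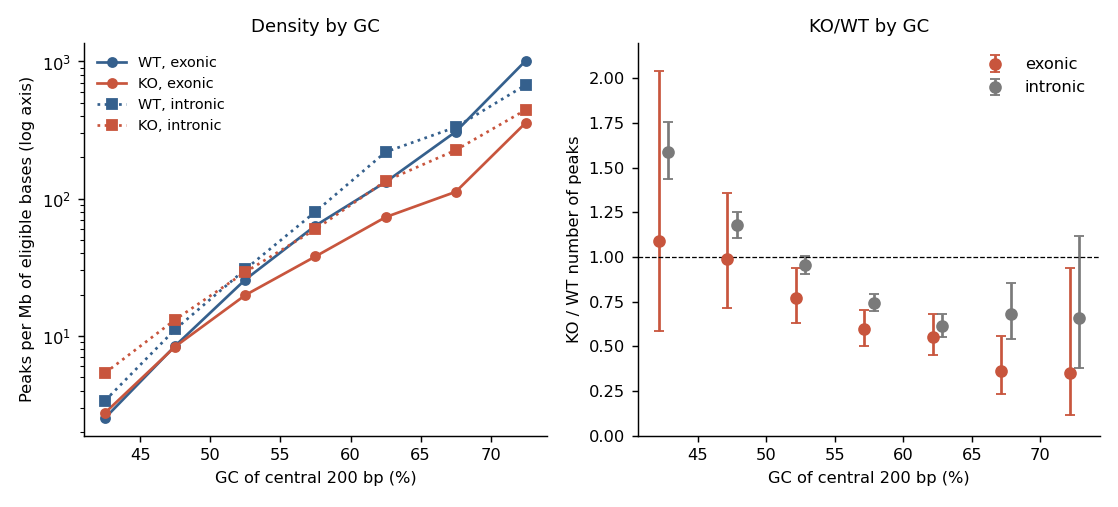
Left, peaks per Mb of eligible sequence (log axis) against the GC content of the central 200 bp in bins of 5 percentage points, for exonic (circles, solid lines) and intronic (squares, dotted lines) distal peaks in WT (blue) and KO (red). Right, KO/WT ratio of peak numbers in the same bins for exonic (red) and intronic (grey) peaks with 95% exact counting intervals. Density is higher at higher GC in every series, and the exonic ratio lies below the intronic one in each bin shown.

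The number of CpGs, the sites that DNA methylation acts on, followed the same order. Members with at most 3 CpGs in the central 200 bp numbered 297 in WT and 245 in KO, a ratio of 0.825 (0.694 to 0.980). With 4 to 6 CpGs the ratio was 0.643 (0.540 to 0.765), with 7 to 9 it was 0.570 (0.465 to 0.698), and with 10 or more, 168 WT and 76 KO peaks gave 0.452 (0.340 to 0.597). Intronic peaks gave 1.09, 0.853, 0.716 and 0.625 over these groups. The median number was 6 CpGs in WT members and 5 in KO members, beside 9 and 6 over all autosomal peaks and 3 and 2 in distal introns. DNA methylation itself was not measured in these libraries.

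Short sequence motifs of transcription factors were searched on both strands of the central 200 bp and, beside them, in the 200 bp at 1 kb on either side. The CTCF core, a match to the centre of the CTCF binding motif, was found in 107 of 1074 WT members (9.96%, 8.24 to 11.9) and in 0.0931% (0.0113 to 0.336) of their flanks, and in 61 of 693 KO members (8.80%, 6.80 to 11.2) and 0.0722% (0.00183 to 0.401) of theirs. Of all autosomal peaks 3.51% held it in WT and 2.64% in KO, and of distal intronic peaks 6.88% and 4.43%. The KO/WT ratio of members with the CTCF core was 0.570 (0.409 to 0.788), beside 0.623 (0.549 to 0.707) in introns and 0.641 (0.601 to 0.684) over all autosomal peaks with it. In coding sequence 41 WT and 15 KO peaks held it (0.366, 0.188 to 0.675). These were 6.80% (4.92 to 9.11) of WT and 4.69% (2.65 to 7.61) of KO coding peaks, near the shares of distal introns. The higher share over all members thus came from members outside coding sequence. Of the 107 WT members with the core, 51 (47.7%) had a KO partner, and of the 61 KO members 48 (78.7%) had a WT partner, beside 518 of 1074 and 497 of 693 for all members. The lower KO number was thus seen for peaks with the CTCF core in exons, in introns and over the whole lists.

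The motif of Klf factors (GGGNGTGG), which bind GC-rich DNA in ESCs, was in 14.9% (12.8 to 17.2) of WT and 16.9% (14.2 to 19.9) of KO members, against 6.75% and 6.20% of their flanks. All autosomal peaks gave 15.9% and 15.997%. The Sox motif (CCATTGT) was in 4.38% and 5.34% of members and in 2.51% and 1.95% of flanks, beside 2.70% and 3.44% of all autosomal peaks. The octamer bound by Oct4 (ATGCAAAT) was in 0.931% (0.447 to 1.71) of WT and 1.01% (0.407 to 2.07) of KO members, below the 2.41% and 2.50% of intronic peaks. Of all autosomal peaks 1.57% and 1.94% held the octamer, within the intervals of members. The E-box (CACGTG) was in 5.49% and 4.62%, the AP-1 motif (TGANTCA) in 4.84% and 6.64%, the Nrf1 motif (GCGCNTGCG) in 1.12% and 0.866%, and the Esrrb motif (TCAAGGTCA) in 0.372% and 0.433%. All autosomal peaks gave 5.43% and 5.34% for the E-box, 4.24% and 5.13% for AP-1, and 0.298% and 0.329% for Esrrb. For Nrf1 they gave 4.92% and 4.55%, so this motif was rarer in members than in all peaks. The intervals of members and flanks were apart in both lists for the CTCF core, Klf and Nrf1. They overlapped in both lists for AP-1 (flanks 5.12% and 4.76%), the octamer and Esrrb, in WT for Sox and in KO for the E-box. Matches of different motifs overlapped in 2 members of each list. The flanks were not matched to the members in GC content or in place within the gene. A match describes the sequence and does not show that the factor was bound.

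**Figure D5:**
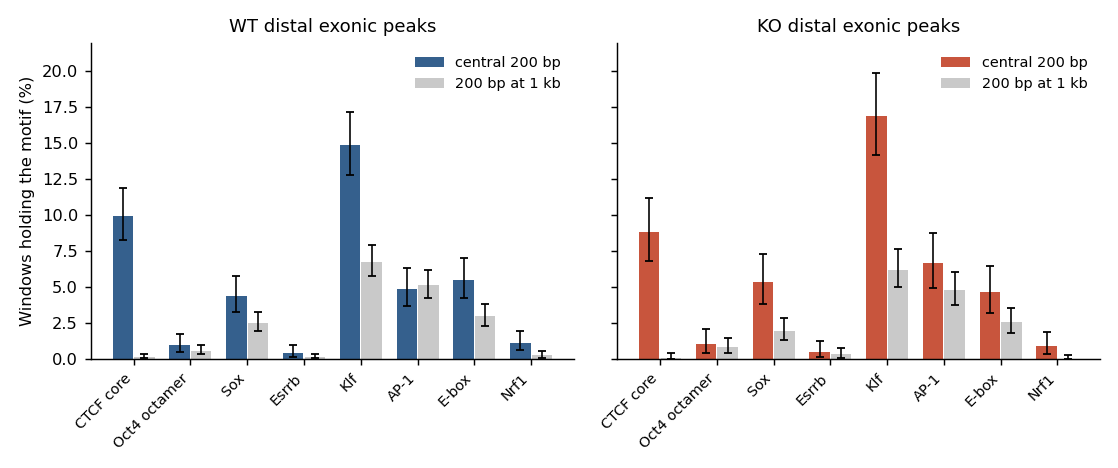
Percentage of distal exonic peaks whose central 200 bp hold each motif (coloured bars) and of the 200 bp windows at 1 kb on either side (grey bars), with 95% exact binomial intervals as black lines, in WT (left) and KO (right). The CTCF core is nearly absent from the flanks, and Klf is the motif found in most members.

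Distal exonic peaks were spread thinly over many genes. Of 17319 protein-coding genes with eligible exon sequence, 860 (4.97%) had a WT member and 569 (3.29%) a KO member. Both lists had members in 390 genes, 470 had WT members only and 179 KO members only. This counts members, so a gene without a KO member can still hold a KO peak that did not meet the rule. Inppl1 had 3 and Cryl1 had 2 WT members, all with a KO partner, and 0 in KO. The same division of genes was not made for other peaks, so it has no background. A single member was found in 674 of the 860 and in 462 of the 569 genes, and no gene had more than 4 in either list.

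The genes with most WT members differed widely in their KO numbers. Members numbered 3 or more in 33 genes in WT and in 21 in KO, and genes with 3 were taken in alphabetical order until 8 were named for each list. Cul9, a scaffold of a ubiquitin ligase, had 4 WT members, all coding and without a partner, and 0 in KO. 3 of them overlapped in a row, at mm9 chr17:46662616-46662716, chr17:46662680-46662780 and chr17:46662735-46662835. Rest, the repressor of neuronal genes outside neurons, had 4 WT members in its coding sequence between chr5:77710671-77710771 and chr5:77710896-77710996, and 1 in KO at chr5:77710880-77710980. Ldhd, a mitochondrial lactate dehydrogenase, had 4 and 1, Tnfrsf1b, a receptor for tumour necrosis factor, 4 and 2, and 1700061G19Rik 3 and 1. A KO partner was found for 3 of the 4 WT members of Rest and of Ldhd. All WT members of Tnfrsf1b and 1700061G19Rik had one, so a lower KO number did not always mean unmatched sites. 5430411K18Rik had 3 coding WT members, all without a partner, and 0 in KO. Gpr124, an adhesion receptor of brain vessels, had 4 WT and 3 KO coding members, and all of them had partners. Neighbouring members of 1 gene can belong to 1 open region, so these numbers are not independent sites.

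In KO, 4 members each were listed in Pdzd2, Zfp219, BC068157 and the protocadherin Pcdhgc5. Pdzd2, a protein with PDZ domains, had 1 in WT, and 3 of its 4 KO members had no WT partner. Zfp219, a zinc finger gene, had 3 in WT at the same coding stretch and 3′ UTR, and 1 of its positions, chr14:52628692-52628792, was listed identically in both. BC068157 had 3 in WT, and Pcdhgc5 had 4. The annotated gene named Pcdhgc5 covers chr18:37833989-38001527, so its members need not lie in 1 small stretch. Arhgap31, a regulator of small GTPases, had 3 and 3, Cmya5, a muscle protein, 2 and 3, Ankrd33b 2 and 3, and Ehd2, a membrane ATPase of caveolae, 1 and 3. All KO members of Arhgap31, Cmya5 and Ehd2 had WT partners.

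The lowest name numbers among shared members were those of Sfi1, of the 3′ UTRs of Sh3glb1, the catalase gene Cat and the mitochondrial leucyl-tRNA synthetase Lars2, of coding sequence of Shank3 and Zscan22, of the 5′ UTR of Msl3l2 and of a non-coding transcript of Zfand1. Their centres lay 2 bp (Sh3glb1 and Cat) to 44 bp (Msl3l2) from those of their KO partners. Sfi1 stood at 0.338% of the name numbers of its chromosome and Zfand1 at 9.63%. The central 31 bp of the Cat peak occurred 2 times in the genome. WT members without a partner began at a higher name number, 17.8% for Sorbs2, followed by Odz2, Hook2, the 3′ UTRs of Slc25a15, Nkain3 and the chemokine gene Cxcl12, with 2 neighbouring peaks, and coding sequence of the chaperone Dnajb6. KO members without a partner began with 2 neighbouring peaks in the 3′ UTR of Chrm1, a muscarinic acetylcholine receptor, at 12.1% and 19.7%, followed by C3, Myof, Ypel4, Neil3, Dnmbp and Utrn. The central 31 bp of the Neil3 peak occurred 615 times in the genome and those of the Dnajb6 peak 3 times, so reads there cannot be placed with certainty. Over all members, 34 of 1074 in WT and 27 of 693 in KO had a central 31 bp that occurs more than once.

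The lists of genes of stem cell and chromatin regulation were short and held few members, although some had a higher share of genes with a member than all genes. The shares of these genes with a member are given beside the 4.97% of all genes with a WT member and the 3.29% with a KO member. Of 26 pluripotency genes with eligible exon sequence, 3 (11.5%) had a WT and 2 (7.69%) a KO member. Etv5, an ETS factor, had 2 and 1 in its coding sequence, all with partners, and Klf5 had 1 shared coding member in each list. Zfp42, the marker gene of ESCs also called Rex1, had 1 without a partner in WT and 0 in KO. None of 17 DNA methylation genes had a member in either list. Of 13 genes of the COMPASS histone H3K4 methyltransferase complexes, Mll1 and Setd1b (15.4%) had 1 WT member each without a partner and 0 in KO. Of 29 Polycomb genes Phc3 had 1 shared member. Of 14 genes of H3K9 methylation, 2 (14.3%) had KO members. Ehmt2 (G9a) had 1 KO member with a WT partner outside the rule, and Pphln1 had 1 KO member without one. Among developmental regulators, Isl1 and Msx1 of 18 mesoderm genes had 1 coding WT member each without a partner, and 11 neuroectoderm genes and 11 genes of the 2-cell stage had none. These numbers are too small to set the gene lists apart from all genes or WT from KO, since the exact Poisson interval of a count of 0 in the 2-cell genes reaches 233 peaks per Mb.

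Some gene families gave more members. Of 65 cadherin and protocadherin genes, 19 (29.2%) had a WT member and 9 (13.8%) a KO member, compared with 4.97% and 3.29% of all genes. Their density was 96.2 peaks per Mb (62.2 to 142) in WT and 46.2 (23.9 to 80.6) in KO, and 22.7 (21.4 to 24.1) and 14.7 (13.6 to 15.8) over all genes. Of the 19 genes, 14 were clustered protocadherin genes of chromosome 18, cell adhesion proteins that give neurons their identity. Pcdhb14 and Pcdhb19 had 2 WT members each, with 1 and 0 in KO. Both WT members of Pcdhb14 had a KO partner and those of Pcdhb19 had none. Pcdhb2, Pcdhb4, Pcdhb7 and Pcdhb10 had 1 shared member in each list. Of 10 frizzled receptors of Wnt proteins, Fzd5 and Fzd8 had 3 WT members each and Fzd7 had 1, with 3, 1 and 0 in KO, all in 3′ UTRs. A KO partner was found for 2 WT members of Fzd5, all 3 of Fzd8 and 0 of Fzd7. Of 409 genes with names of C2H2 zinc finger proteins, 23 (5.62%) had a WT and 14 (3.42%) a KO member, near the share of all genes. Zfp358, Zfp385a and Zscan22 had 3 in WT, with 1, 2 and 2 in KO, and 2, 3 and 3 of the WT members had a KO partner. Zfp335, Zfp574 and Zbtb45 had 2 without a partner in WT and 0 in KO. Zfp169 had 0 in WT and 2 in KO, both with a WT partner that did not meet the rule. Of 42 collagen genes, 3 had a WT and 1 a KO member, of 49 keratin genes 2 and 1, of 15 axonemal dynein genes 1 and 1, and of 69 olfactory receptor genes 1 and 0.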

How the data were processed

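ATAC-seq peak lists of 1 library of WT ESCs and 1 library of Uhrf1 KO ESCs were used. According to the methods, the authors aligned reads locally to mm9, with 1 alignment kept for a read, and used fragments under 150 bp. The submitters' processing notes name Bowtie2 (2.1.0) and HOMER (4.9.1). The settings of peak calling are not given in the sources used here. The deposited score is 1 for every peak and was not used as a measure. Peaks were 101 bp wide, apart from 1 KO peak, and the depth behind each is unknown.

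The centre of each peak was placed on GENCODE vM1 transcripts, with coding sequence of any transcript taking precedence over UTRs and these over transcripts without coding sequence. The NCBIM37 genome, the same assembly as mm9, gave GC content, CpGs, motifs and the number of copies of the central 31 bp on both strands. Eligible bases are autosomal bases that would meet the rule as a peak centre. Expected numbers at matched GC used bins of 5 percentage points. Partners were peaks of the other list at a gap of 100 bp or less. Intervals are 95% exact binomial (Clopper-Pearson) or Poisson intervals, and no test between genotypes was made. Named genes were the 8 with most members in each list (ties in alphabetical order, which at 3 members left out other genes with 3), those of the gene lists, and those of the 8 peaks with the lowest relative name number among shared WT, WT-only and KO-only members. Sequences were chosen as the 4 lowest-numbered coding peaks of each status outside UTRs and chromosome 18, and 1 of these peaks is not reported here. Genes named for the clustered families and for the start of chromosome 1 were chosen after their values were seen. The members, gene lists and alternatives were chosen with earlier results of these data known. Partner, copy and merging routines were tested on simulated data. Python 3.11.15, numpy 2.4.6, pandas 2.3.3, scipy 1.17.1, numba 0.67.0, pysam 0.24.0 and matplotlib 3.10.9 were used.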

Additional observations from a re-analysis of the deposited data

How the results depend on the processing

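Of 72 values recomputed under 13 alternatives for 7 results, 51 stayed inside the counting interval of the reported value and 21 did not. No paired analysis was possible because the lists come from single libraries, and no replicate could be left out. With the 50% of each list that has the lower name numbers, the KO/WT ratio was 0.806, WT peaks without a partner made up 47.6% and KO peaks 33.5% (27.8 to 39.5), beside 29.5% and 21.6% of all autosomal peaks, and 52.4% of WT peaks were coding. Looked up in the whole other list, these shares without a partner were 25.5% and 12.8%, beside 10.9% and 8.52% of all autosomal peaks. When at least 1 bp had to be shared, 55.2% of WT peaks had no partner, beside 38.2% of all autosomal peaks, and when 50% of both peaks had to be shared, 64.5% of WT and 43.7% of KO peaks had none, beside 50.4% and 42.3% of all autosomal peaks. With CpG-island-like peaks kept, the KO/WT ratio was 0.571, KO peaks without a partner 23.2%, coding shares 68.2% in WT and 57.2% in KO, and the density of exons over introns 2.77 in WT and 1.67 in KO. With exons of protein-coding transcripts only, coding shares were 61.5% and 51.9%. With whole peaks inside the exon they were 46.4% and 33.9%. With peaks of a unique central 31 bp, the density of exons over introns was 2.01 in WT and 1.38 in KO. The cause of these changes was not tested. The KO/WT ratio stayed below that of all autosomal peaks in the 10 alternatives that give it. With lower name numbers its interval (0.683 to 0.9502) included theirs (0.853), a ratio that the cut at 50% of each list keeps unchanged. 1 alternative, which leaves out the first 7 Mb of chromosome 1, was chosen after seeing the data. With no read counts, a peak that is missing from a list cannot be told from one just under its threshold, and a peak has no error of its own.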

Other observations

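Several genes that no list names had members in KO only. L3mbtl3, a reader of methylated histone lysine, had 3 coding KO members at mm9 chr10:25999891-25999991, chr10:26000036-26000136 and chr10:26000086-26000186, with a GC content of 66.5%, 68.5% and 62.5%, and none in WT. Tcte2 had 3 KO members in a transcript without coding sequence, of which 2 had a central 31 bp found 65 and 64 times in the genome. Kdm6b, a demethylase of histone H3K27, had 2 KO members in its 5′ UTR, and both had a WT partner that did not meet the rule. These genes were chosen after their values were seen.

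Close neighbours were more common among distal exonic than distal intronic peaks and less common than near TSSs. In WT 31.7% (28.9 to 34.5) of members had another WT peak within 100 bp, beside 25.1% (24.2 to 26.0) of distal intronic peaks, and in KO the shares were 28.0% (24.7 to 31.5) and 22.3% (21.4 to 23.1). Within 2 kb of a TSS they were 53.9% in WT and 48.7% in KO. The median distance to the nearest peak of the same list was 3050 bp for WT and 4080 bp for KO members. Merging neighbours left the KO/WT ratio at 0.665, beside 0.903 over all merged regions.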
